A study of Rattus norvegicus with 144 samples.

Results

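The fatty acid binding proteins are small cytoplasmic carriers of long-chain fatty acids and other lipids. The 7 genes Fabp1 to Fabp7 were chosen by their platform symbols, and the family was proposed with the measured dose differences from control on these arrays already known. Each gene was read by every probe set whose symbol names it, which gave 1 probe set a gene: 7 of 31042 probe sets in the table of 108 arrays and the same 7 of 15866 in the table of 36 arrays. Counts and adjusted p-values below, also those between doses, days and tissues, use the same dosed arrays, so they describe where the members stand among all probe sets and are not independent support. The deposited series covers 2 compounds known only by code names, AMG A and AMG B, given by mouth once a day to male Sprague Dawley rats aged 8 to 10 weeks, and its design text refers to an antiangiogenic action of both. AMG A was given at 0, 3 or 30 mg/kg and AMG B at 0, 3 or 60 mg/kg, for 1, 4 or 14 days, with 4 animals in each of 36 groups of tissue, study, dose and day (144 arrays of 72 animals). Liver was measured on all 3 days in both studies, adrenal on all 3 days for AMG B and on day 14 for AMG A, and pancreas on day 14 in both. A control is an animal of the same study and day that received 0 mg/kg, and what the control dose contained is not given in the sources used here.

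Fatty acids are poorly soluble in water, and the family carries them between membranes, to mitochondria and peroxisomes for oxidation, to the endoplasmic reticulum for esterification, and into the nucleus, where some members hand ligands to the PPAR receptors. Fabp1 is the abundant liver form and Fabp2 the intestinal form. Fabp3 serves heart, muscle and brown fat, Fabp4 is the fat cell form and is also made in macrophages and capillary endothelium, and Fabp5 is the epidermal form, found in many tissues. Fabp6, or gastrotropin, binds bile acids in the ileum, where the bile acid receptor FXR drives it, and Fabp7 is the brain form.

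RefSeq (GRCr8) gave the 250 bases upstream of the start of 5 of the 7 members, matched by symbol: Fabp1, Fabp2, Fabp3, Fabp6 and Fabp7. The sequence of Fabp6, the member with the largest dose difference in score, is shown with that of Fabp1, the main liver member, each 5′ to 3′ on the strand of the gene. Capitals mark a match, on either strand, to an inverted repeat of the kind FXR binds (IR-1: AGGTNA and TNACCT parted by any 1 base) or to a direct repeat of the kind PPARs bind (DR1: AGGNCA repeated after any 1 base).
Fabp6, chr10:28569728-28569977, minus strand: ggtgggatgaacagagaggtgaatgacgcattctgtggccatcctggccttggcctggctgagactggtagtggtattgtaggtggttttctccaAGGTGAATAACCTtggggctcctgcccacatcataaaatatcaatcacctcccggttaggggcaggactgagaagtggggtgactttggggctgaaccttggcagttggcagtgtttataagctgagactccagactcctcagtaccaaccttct
Fabp1, chr4:104749090-104749339, plus strand: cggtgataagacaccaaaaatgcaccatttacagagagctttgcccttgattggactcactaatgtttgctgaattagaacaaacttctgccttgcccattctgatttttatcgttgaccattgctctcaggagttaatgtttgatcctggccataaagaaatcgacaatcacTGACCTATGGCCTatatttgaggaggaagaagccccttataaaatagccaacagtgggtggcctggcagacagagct

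The Fabp6 match to the inverted repeat lies from -155 to -143, counting the base before the start as -1. The same letters occur in 15 of 33469 promoters (0.0448%). They were loosened after the Fabp6 sequence had been read: the stricter form, AGGTCA and TGACCT parted by any 1 base, is in 9 promoters (0.0269%) and in none of the 5 members. The Fabp1 match to the direct repeat lies from -77 to -65, on the opposite strand, and 0.368% of promoters hold these letters. In all, 12 patterns were searched on both strands, some of which overlap. Fabp6 also holds TCACNCCAC (0.974% of promoters), Fabp1 and Fabp6 hold CAAGGNCA (5.58%), Fabp3 holds TGATGNAAN (3.38%), and Fabp1 holds a DR1 form in which the first base of the first repeat is free (0.669%) at its direct repeat. None of the 5 holds the long SRE motif (0.23%), CAAGGTCA (1.33%), TGACGTCA (1.59%), the ERSE motif (0.0657%) or TGACNNNGC (10.1%). A match is a description of the letters, not a measured site.

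The deposited values are scores, standardised so that a probe set averages about 0 with an SD of about 1 (the median SD over 15866 shared probe sets was 1.01 when the 144 arrays of both tables were pooled). A difference of 1 is thus about 1 SD of that probe set over these tissues and animals. It gives no fold change and no RNA amount, and the score of one gene says nothing about its level against another gene. Score differences likewise do not rank genes by how much their RNA changed. Array medians ran from -0.774 to -0.729 in the table of AMG A livers and from -0.109 to 0.0624 in the other, so levels were not set against each other between tables. Markers followed the labelled tissues: within the larger table, the mean of the hepatocyte markers was 0.551 to 1.32 in liver and at most -0.619 elsewhere, that of the adrenal cortex markers 0.999 to 1.86 in adrenal and at most -0.684 elsewhere, and that of the acinar markers 1.54 to 3.12 in pancreas and at most -0.412 elsewhere. The tissues were measured whole, so fewer cells of a type and less RNA per cell cannot be told apart.

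**Figure D1:**
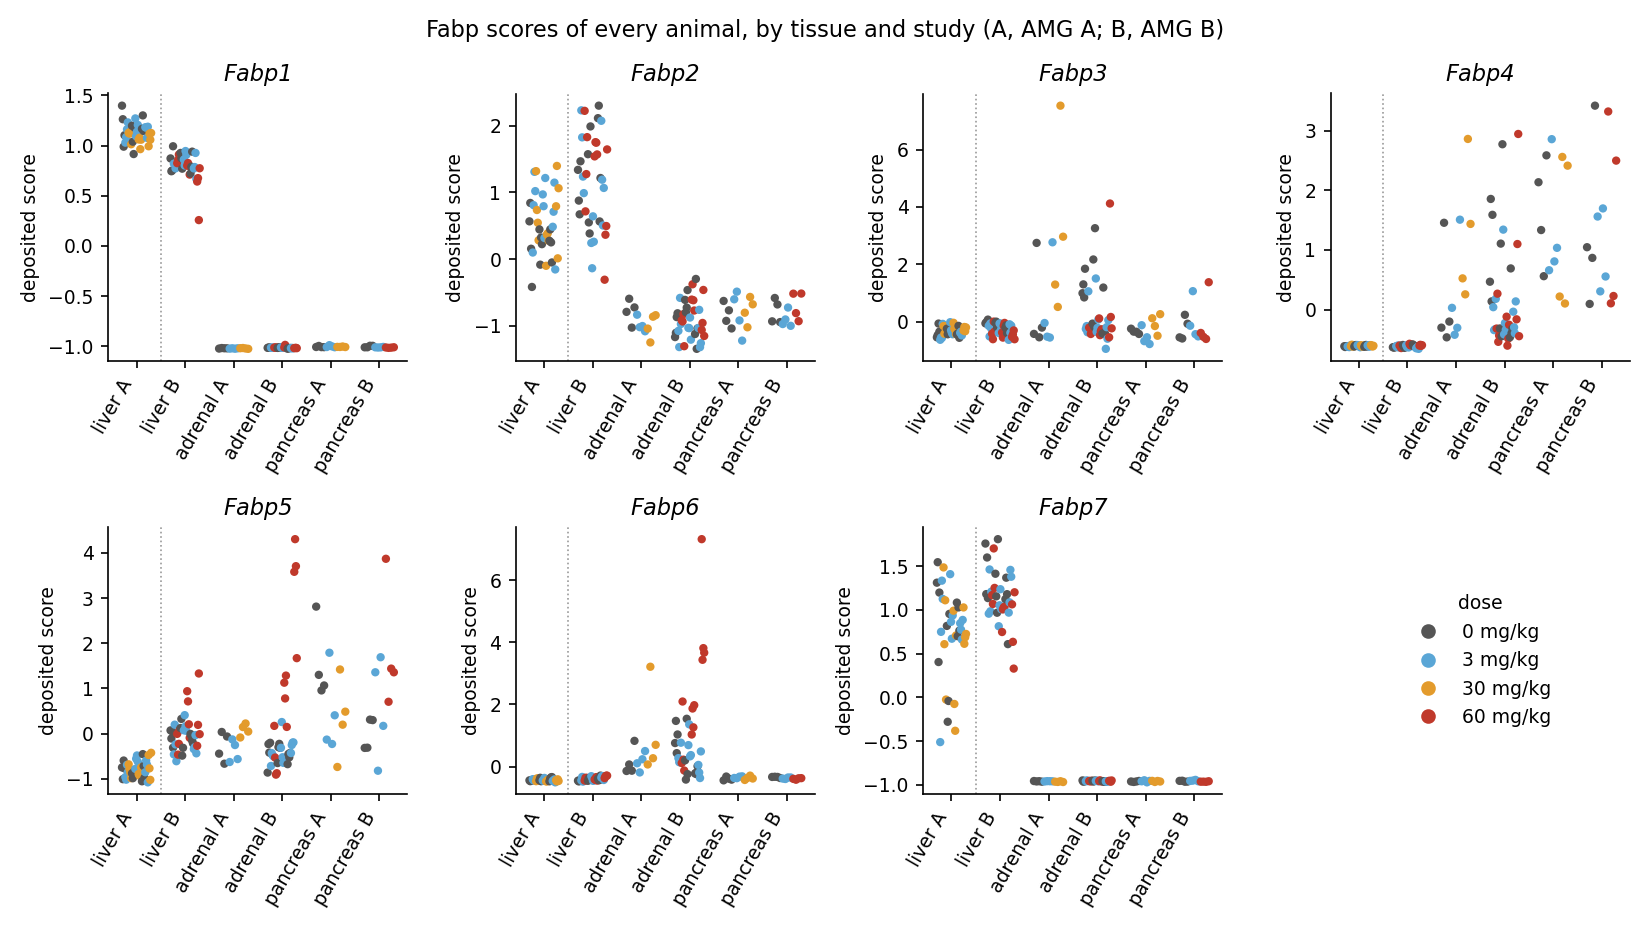
Deposited score (vertical axis) of each Fabp gene in each animal (1 point each, coloured by dose) by tissue and study, with a dotted line between the 2 separately deposited tables. Fabp1, Fabp2 and Fabp7 stand high in liver, and Fabp6 leaves its narrow low band in adrenal.

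The members fell into tissue patterns that differed in spread as well as level. Among the AMG B arrays, Fabp1 scored 0.257 to 0.993 in liver (median 0.809, n = 36), -1.03 to -0.987 in adrenal (n = 36) and -1.02 to -0.996 in pancreas (n = 12), so every liver stood above every other tissue. Fabp7 had the same shape, with 0.329 to 1.81 in liver, -0.966 to -0.949 in adrenal and -0.966 to -0.944 in pancreas. Fabp2 scored -0.309 to 2.3 in liver, -1.35 to -0.298 in adrenal and -1.0 to -0.517 in pancreas, and here the lowest liver overlapped the highest adrenal. For these 3 genes adrenal and pancreas lay within each other's spread.

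The other 4 members did not stand high in liver alone. Fabp4 was lowest and nearly constant in liver (-0.656 to -0.571), wide in adrenal (-0.602 to 2.94, median -0.238) and highest in pancreas (0.0966 to 3.42, median 0.957), and adrenal and pancreas overlapped. Fabp6 kept to -0.486 to -0.293 in liver and -0.425 to -0.330 in pancreas, whereas adrenal ran from -0.420 to 7.32 with a median of 0.40. Fabp3 had close medians in liver (-0.193) and adrenal (-0.203), but its highest adrenal was 4.12 against a highest liver of 0.0679, and pancreas ran from -0.606 to 1.37 with a median of -0.419. Fabp5 overlapped in all 3 tissues, with medians of -0.0217 in liver, -0.312 in adrenal and 0.509 in pancreas. The AMG A livers were deposited as a separate table. There Fabp1 ran from 0.915 to 1.40, Fabp2 from -0.418 to 1.40 and Fabp7 from -0.512 to 1.55. Fabp3 ran from -0.636 to -0.0222, Fabp4 from -0.629 to -0.587, Fabp5 from -1.08 to -0.423 and Fabp6 from -0.509 to -0.340.

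Dosing moved 2 of the 7 genes past the threshold, both upward, both in the adrenal and both at 60 mg/kg AMG B. Fabp5 was higher on days 4 and 14 and Fabp6 on day 14. Each of 24 dose groups was compared with its same-day control for the 7 genes, which gave 168 tests. Of these, 3 had an adjusted p-value below 0.05 (limma, Benjamini-Hochberg over all probe sets of the table), and 14 had an unadjusted p below 0.05. None of 42 tests in AMG A liver was called (1 unadjusted), none of 42 in AMG B liver (5), none of 14 in AMG A adrenal (1), none of 14 in AMG A pancreas (0) and none of 14 in AMG B pancreas (1). In the adrenal at 60 mg/kg AMG B, 5.96% of all probe sets were called on day 14 (3.12% called higher) beside 2 of 7 members, 0.889% on day 4 (0.296% called higher) beside 1 of 7, and 0.335% on day 1 beside none. At 3 mg/kg AMG B the adrenal background was 0.00644%, 0.0354% and 0.00322% on days 1, 4 and 14, and with AMG A it was 0% at both doses. In AMG A liver it was 0.0378%, 0.0126% and 0.0063% at 3 mg/kg and 0.366%, 0.0693% and 0.353% at 30 mg/kg on those days. In AMG B liver it was 0.00966%, 0.0226% and 0% at 3 mg/kg and 0.0548%, 0.68% and 5.66% at 60 mg/kg. In pancreas it was 0.00322% at 3 and also at 30 mg/kg AMG A, 0.0226% at 3 mg/kg AMG B and 9.88% at 60 mg/kg AMG B.

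**Figure D2:**
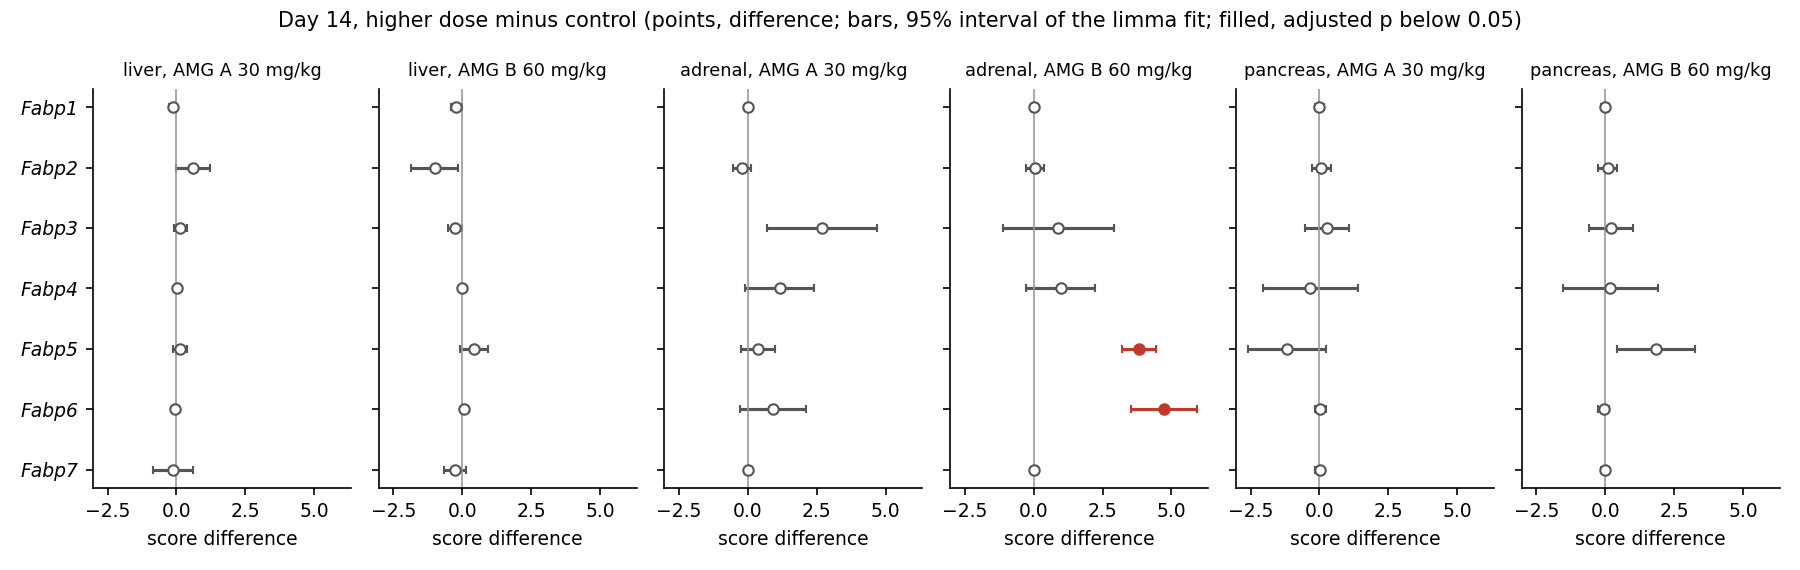
Score difference from control on day 14 at the higher dose (horizontal axis) for each Fabp gene, by tissue and compound, with the 95% interval of the limma fit and filled points where the adjusted p was below 0.05. Fabp5 (3.83) and Fabp6 (4.73) in the adrenal at 60 mg/kg AMG B are the filled points.

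Fabp5 (probe set 1370281_at), the epidermal form, was high in all 4 adrenals dosed with 60 mg/kg AMG B for 14 days. The dosed animals scored 3.58 (animal 33), 4.30 (34), 3.70 (35) and 1.67 (36), and the controls -0.674 (25), -0.449 (26), -0.523 (27) and -0.424 (28). No dosed animal overlapped a control, a separation that 10.3% of all probe sets showed in this comparison. The difference was 3.83 (SE 0.308, limma adjusted p = 9.79e-11, n = 4 and 4). The SD was 1.14 within the dosed group and 0.112 within the controls, whereas the fit shares 1 spread over all adrenal groups. In a fit of only the 2 groups compared it stayed called at an adjusted p of 0.0406. The platform reads Fabp5 by 1 probe set, and RefSeq names 2 Fabp5 pseudogenes, so signal shared with near copies cannot be told apart.

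The Fabp5 difference was smaller on day 4 and not seen on day 1. On day 4 the dosed adrenals scored 1.13, 0.779, 1.28 and 0.149 and the controls -0.650, -0.297, -0.225 and -0.312. These groups did not overlap either (6.6% of all probe sets), and the difference was 1.21 (SE 0.308, limma adjusted p = 0.0435). This call was close to the threshold. With control 13 left out the adjusted p was 0.156, with control 14 it was 0.0811, with control 15 it was 0.0508 and with control 16 it was 0.0901. With dosed animal 21, 22 or 23 left out it was 0.124, 0.0711 or 0.154, and in a fit of only the 2 groups compared it was 0.175. On day 1 the dosed adrenals, at 0.173, -0.528, -0.905 and -0.874, lay around the controls, at -0.860, -0.230, -0.418 and -0.201, with a difference of -0.106 (limma adjusted p = 0.983).

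Fabp6 (probe set 1368697_at), the bile acid carrier of the ileum, showed the largest dose difference of the family in score, a unit set by each gene's own SD. After 14 days at 60 mg/kg AMG B the adrenals scored 7.32 (animal 33), 3.44 (34), 3.81 (35) and 3.67 (36), against -0.225 (25), -0.206 (26), -0.247 (27) and 0.0117 (28) in controls. All dosed animals lay above all controls, and animal 33 lay far above the other 3. The difference was 4.73 (SE 0.584, limma adjusted p = 1.50e-06) and 3.81 without animal 33. The SD was 1.85 within the dosed group and 0.120 within the controls. In a fit of only the 2 groups compared the call was lost (adjusted p = 0.0749).

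The earlier days gave no call for Fabp6. On day 4 the dosed adrenals scored 1.03, 1.87, 1.26 and 1.98 and the controls 0.200, -0.420, 1.54 and -0.245, so 1 control lay among the dosed animals, and the difference was 1.27 (limma adjusted p = 0.395). On day 1 the difference was -0.348 (limma adjusted p = 0.953), with dosed adrenals at 0.114, 2.09, 0.221 and -0.129. The control scores also varied by day, at 0.432 to 1.47 on day 1 and -0.247 to 0.0117 on day 14. The day 4 controls, at -0.420 to 1.54, spanned both ranges.

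**Figure D3:**
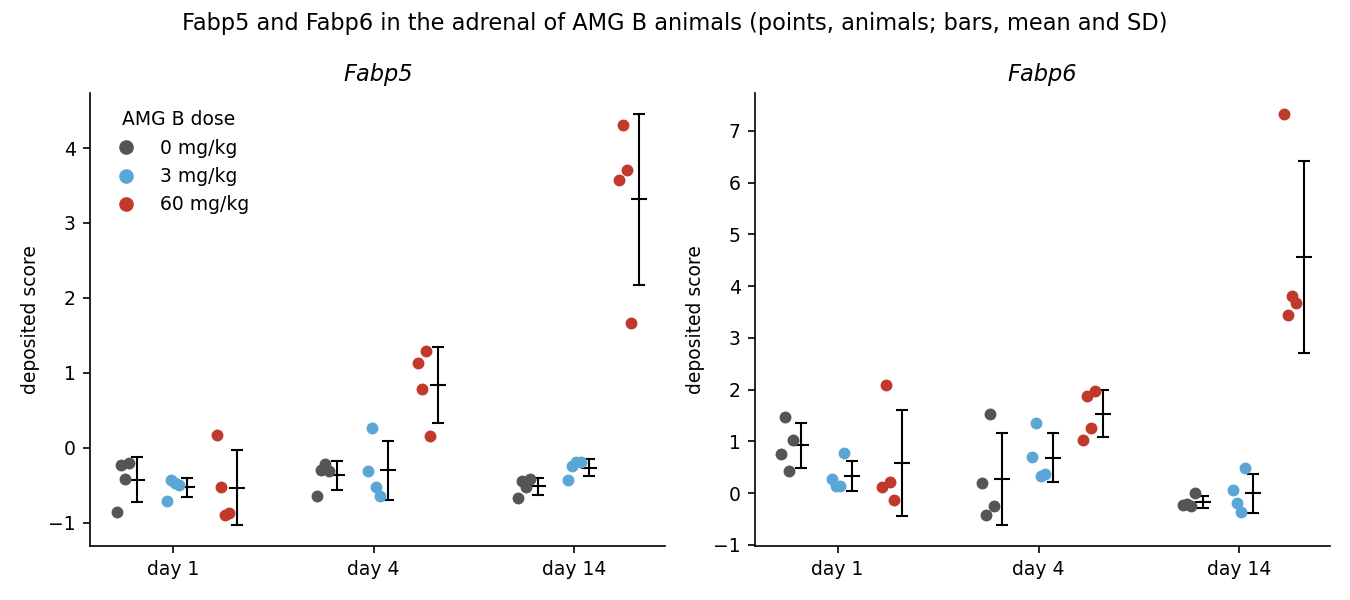
Deposited score (vertical axis) of Fabp5 and Fabp6 in each adrenal of the AMG B study by day and dose (points, animals; bars, mean and SD of 4 animals). On day 14 the 60 mg/kg animals lie at 1.67 to 4.30 for Fabp5 and 3.44 to 7.32 for Fabp6, above every animal at 0 or 3 mg/kg.

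The low dose did not share these differences. At 3 mg/kg AMG B on day 14, adrenal Fabp5 was -0.427, -0.250, -0.198 and -0.193 (difference 0.251) and Fabp6 was 0.0515, -0.193, -0.371 and 0.487 (difference 0.160), and neither was called. The 60 mg/kg adrenals exceeded the 3 mg/kg adrenals by 3.58 for Fabp5 (limma adjusted p = 4.77e-10) and 4.57 for Fabp6 (3.93e-06), a comparison in which 4.5% of all probe sets were called. Both calls were lost in a fit of only those groups (adjusted p = 0.0976 and 0.157).

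The difference from control was also larger on day 14 than on day 1, by 3.94 for Fabp5 (limma adjusted p = 1.03e-06) and 5.08 for Fabp6 (0.00095), where 1.16% of all probe sets were called. Part of the Fabp6 value comes from the controls, whose mean was 0.923 on day 1 and -0.167 on day 14. In a fit of only the groups compared, Fabp5 stayed called (adjusted p = 0.0286) and Fabp6 did not (0.0671). Across tissues at 60 mg/kg AMG B on day 14, the liver difference was below the adrenal difference for Fabp5 (liver minus adrenal -3.41, limma adjusted p = 0.00279) and Fabp6 (-4.66, 2.61e-06), with 1.86% of all probe sets called. Pancreas was below adrenal for Fabp6 (-4.78, limma adjusted p = 1.39e-06, with 10.7% of all probe sets called). For Fabp5 the pancreas difference was -1.99 and missed the threshold (0.0613). Without animal 33 or animal 36 that Fabp5 value passed it, at -2.57 (0.0135) and -2.37 (0.0303).

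At 60 mg/kg on day 14 all 7 members had a positive adrenal difference, with a median of 0.890 (the value of Fabp3) against 0.000868 over all probe sets. Without animal 34 the Fabp3 difference was -0.192, 6 members were positive and the median was 0.0587. Without animal 35 the median was 0.284, and without animal 35, control 25 or control 27 Fabp2 was negative. With the mean score of the fat cell markers as a covariate, an alternative added after seeing the data, Fabp2 (-0.0695) and Fabp3 (-0.190) were negative, Fabp4 was 0.0307 and the median was 0.00616. Fabp1, Fabp2 and Fabp7 stood near 0, with differences of 0.00198, 0.0426 and 0.00531. Fabp1 and Fabp7 barely varied over all adrenals of that study (SD 0.00570 and 0.00446, n = 36). Their values near 0 thus do not show a lack of response, and their positive signs carry little weight. Fabp3 and Fabp4 had differences of 0.890 (limma adjusted p = 0.720) and 0.979 (0.429), with 1 or 2 animals high in each. For Fabp3, animal 34 scored 4.12 while animals 33, 35 and 36 scored -0.549, 0.160 and -0.236, and Fabp4 was 2.94 in animal 35, 1.10 in animal 34, and -0.162 and -0.444 in animals 33 and 36.

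Markers of several cell types moved in the same adrenals. Of 17 endothelial probe sets, 5 fell (Tie1, Tek, Kdr, Ptprb and Emcn), and the mean of the list was -0.430, -0.414 and -0.478 in animals 33, 34 and 36 against 0.467 to 0.870 in controls. Of 10 macrophage probe sets, 5 fell, C1qa, C1qb, C1qc, Csf1r and Adgre1, with list means of -1.02, -1.14 and -1.03 in those 3 animals against -0.421 to -0.135 in controls. Animal 35 stood apart on both lists, at 0.714 and 0.0490. Its Fabp5 and Fabp6 scores lay among those of the other dosed animals. Without it the Fabp5 and Fabp6 differences were 3.70 and 4.98. Of 9 adrenal cortex probe sets none was called (list mean 1.22 to 1.57 against 1.16 to 1.52). Nor was any of 9 medulla, 8 enterocyte or 11 fat cell probe sets. The dosed animals varied widely on 2 of these lists. The medulla mean ran from -0.0197 to 1.58 in them against 0.856 to 1.05 in controls. The fat cell mean ran from -0.502 to 1.39 against -0.459 to 0.101. Of 10 brown fat probe sets, Dio2 rose (2.47), and of 17 muscle probe sets 1 rose and 3 fell, all of Myh1. A fit with the fat cell mean as a covariate, added after seeing the data, is given below. The part of the other cell types in the Fabp5 and Fabp6 differences was not tested.

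Fabp3, the muscle and brown fat form, and Fabp4, the fat cell form, varied widely between adrenals of the same group. The largest dose difference of Fabp3 was in the adrenal at 30 mg/kg AMG A, where the dosed animals scored 1.29, 0.510, 7.53 and 2.96 and the controls -0.430, 2.74, -0.549 and -0.211. The groups overlapped through control animal 3010, and the difference was 2.68 (SE 0.993, limma adjusted p = 0.690). For Fabp4 it was a lower score at 60 mg/kg AMG B on day 1, with dosed animals at -0.316, 0.268, -0.538 and -0.433 and controls at 0.469, 1.86, 0.139 and 1.59. The difference was -1.27 (SE 0.620, limma adjusted p = 0.549), and these groups overlapped too. Fabp3 did not overlap its controls in that comparison (difference -1.55, limma adjusted p = 0.723), as 6.53% of all probe sets did not.

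Both genes followed the fat cell markers from animal to animal. Over 48 adrenals, after each group's mean was removed, Fabp4 correlated with the mean of 11 fat cell probe sets (Adipoq, Lep, Plin1 and others, Fabp genes not among them) at Pearson r = 0.973 and Spearman rho = 0.959 (permutation within groups, adjusted p = 0.00016 and 5.3e-05; the raw p of both, 1e-05, is the smallest the permutations can give), and at 0.963 without the 2 animals farthest from the median. Fabp3 correlated with the same list at r = 0.689 and rho = 0.809 (permutation, adjusted p = 0.0022 and 5.3e-05; r = 0.745 without 2 animals), and with Fabp4 at r = 0.737 and rho = 0.824 (permutation, adjusted p = 0.00088 and 5.3e-05; r = 0.776). Fabp5 and Fabp6 did not pass this test against the list (r = 0.276 and -0.214, permutation, adjusted p = 0.47 and 0.49) nor against each other (r = 0.114, 0.69). These belong to a family of 16 relations chosen after the scores had been seen.

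**Figure D4:**
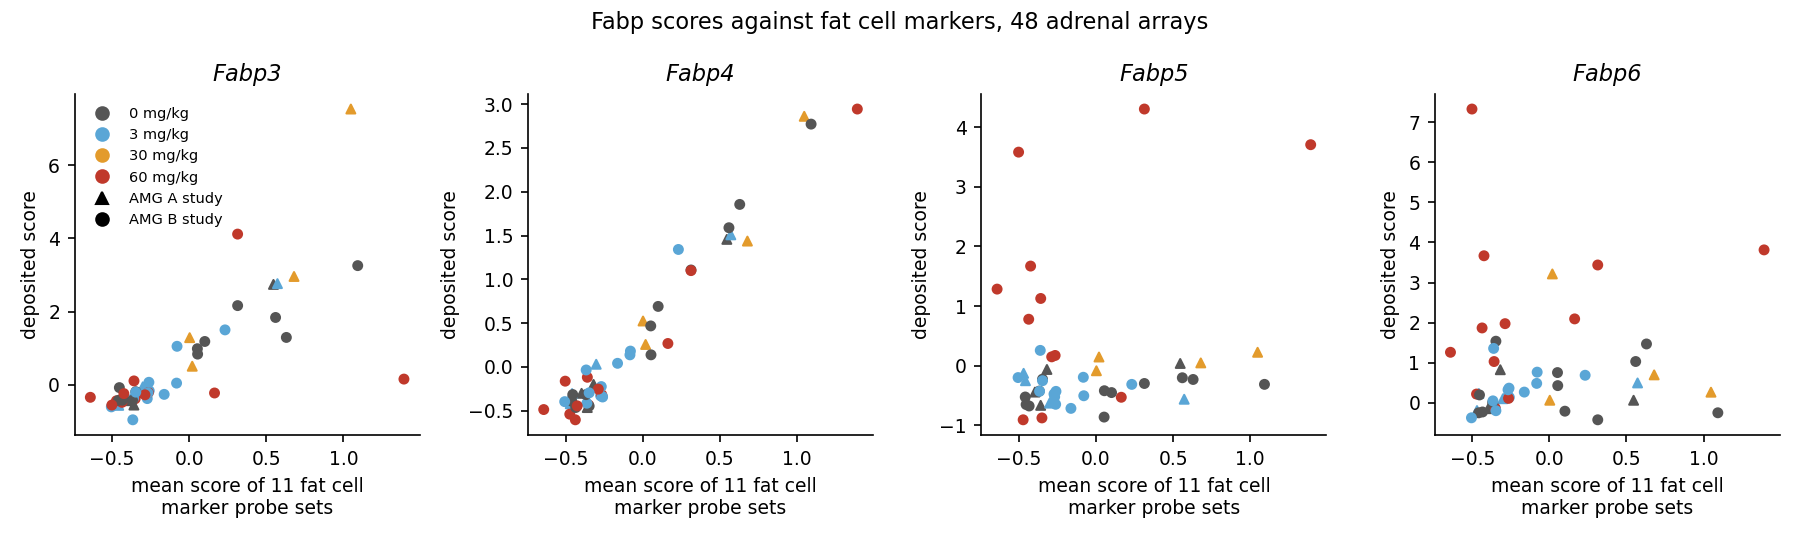
Deposited score (vertical axis) of 4 Fabp genes against the mean score of 11 fat cell marker probe sets (horizontal axis) in 48 adrenals, coloured by dose and shaped by study. Fabp4 lies along a line in all dose groups, whereas the highest Fabp5 and Fabp6 scores occur at low and high marker means alike.

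With the same fat cell mean as a covariate, the Fabp3 difference at 30 mg/kg AMG A went from 2.68 to 1.42 and the Fabp4 difference from 1.15 to 0.0331. At 60 mg/kg AMG B on day 1 the Fabp3 difference went from -1.55 to -0.316 and the Fabp4 difference from -1.27 to -0.182. The day 14 differences at 60 mg/kg AMG B stayed at 3.70 for Fabp5 and 4.92 for Fabp6, both called.

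The compounds could be compared at matched dose and day at 3 mg/kg on day 14, in adrenal and pancreas, for 7 genes each, and none of these 14 differences was called (0.00644% of all probe sets were in adrenal and 0% in pancreas). In the adrenal the AMG A minus AMG B difference in response was -0.360 for Fabp5 (95% interval -1.24 to 0.522) and -0.152 for Fabp6 (-1.82 to 1.52). For Fabp3 it was 0.426 (-2.42 to 3.27) and for Fabp4 0.107 (-1.67 to 1.88). The intervals of Fabp3, Fabp4 and Fabp6 span more than 1 SD either way. In the pancreas the Fabp5 value was -1.68 (-3.69 to 0.334, limma adjusted p = 0.585). The higher doses differ, 30 mg/kg of AMG A against 60 mg/kg of AMG B, so their values are set side by side without a test: adrenal Fabp5 on day 14 differed from control by 0.366 and 3.83, and Fabp6 by 0.908 and 4.73. At 30 mg/kg AMG A, adrenal Fabp6 was 0.0667, 0.267 and 0.699 in animals 3033, 3035 and 3036, and 3.21 in animal 3034.

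In the liver, where Fabp1 is the abundant carrier, no member was called at any dose or day of either compound. The largest Fabp1 difference was at 60 mg/kg AMG B on day 14, where the dosed animals scored 0.641, 0.675, 0.257 (animal 35) and 0.773 and the controls 0.722, 0.789, 0.939 and 0.769. Animal 35 was the lowest of all livers of that table, the groups overlapped, and the difference was -0.218 (SE 0.101, limma adjusted p = 0.225), beside 5.66% of all probe sets called. Fabp2 had its largest difference in the same comparison, with -0.309, 0.365, 0.496 and 1.64 in dosed animals and 2.11, 2.30, 0.565 and 1.22 in controls, which overlapped (-1.0, SE 0.421, limma adjusted p = 0.176). Liver animal 35 also had the highest Fabp5 score of that tissue and study, 1.33, against -0.269 to 0.194 in the other 3 dosed livers. Fabp7, the brain form, had its largest difference at 3 mg/kg AMG A on day 4 (1.41, 0.864, 0.671 and 0.938 against 0.817, -0.279, -0.0416 and 0.955), at 0.608 (SE 0.351, limma adjusted p = 0.749), and its groups overlapped. In that comparison 0.0126% of all probe sets were called.

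In the pancreas Fabp5 was the member with the largest score differences. At 60 mg/kg AMG B it scored 3.87, 0.706, 1.44 and 1.36, all above the controls at -0.314, -0.310, 0.311 and 0.300, with a difference of 1.85 (SE 0.682, limma adjusted p = 0.0910). This missed the threshold in a comparison where 9.88% of all probe sets were called and 17.9% did not overlap. With AMG A the Fabp5 differences were negative, -1.07 at 3 mg/kg and -1.19 at 30 mg/kg, with controls at 0.957 to 2.81 (limma adjusted p = 0.801 at 30 mg/kg; neither was called). All 9 acinar marker probe sets fell at 60 mg/kg AMG B, and their mean was 1.54 to 1.72 in dosed animals against 2.31 to 3.12 in controls. The mean of lymphoid cell markers was uneven in these pancreases. With AMG A its median was 1.35 in controls (highest 6.80), -0.184 at 3 mg/kg and 0.256 at 30 mg/kg. With AMG B it was 0.0248 in controls, 2.04 at 3 mg/kg and -0.179 at 60 mg/kg (highest 4.68). Within groups, pancreatic Fabp5 followed Fabp4 (r = 0.707, rho = 0.661, permutation, adjusted p = 0.0008 and 0.0014, n = 24; r = 0.683 without 2 animals) and the fat cell markers (r = 0.556, rho = 0.550, permutation, adjusted p = 0.0049 and 0.012; r = 0.473), and Fabp4 followed those markers (r = 0.927, rho = 0.887, permutation, adjusted p = 0.00032 and 0.00012; r = 0.932). With the fat cell mean as a covariate, the Fabp5 difference at 60 mg/kg AMG B went from 1.85 to 1.79 (limma adjusted p = 0.0594). At 3 and 30 mg/kg AMG A it was then -0.954 and -0.960. The part of acinar and lymphoid cells in the Fabp5 scores was not tested.

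Genes that work beside the carriers were counted by probe set, in a comparison where 5.96% of all probe sets were called and 3.12% called higher, so a list with 1 or 2 calls lies near that share. In the adrenal at 60 mg/kg AMG B on day 14, 3 of 19 probe sets of fatty acid uptake rose, all of Vldlr, the receptor for triglyceride-rich lipoproteins (differences 1.01 to 1.54), and Got2, which also serves as a fatty acid binding protein of the plasma membrane, fell (-0.439). Of 18 probe sets of acyl-CoA synthesis and breakdown, Acss2, which makes acetyl-CoA from acetate, rose (2.55) and Acot2, a mitochondrial thioesterase, fell (-1.22). Of 29 probe sets of triglyceride storage and breakdown, 3 fell, all of Mgll, the monoglyceride lipase. Of 22 probe sets of fatty acid oxidation, 5 fell, Ech1 (-1.23), Acads (-1.01), Hadha (-0.903), Acadm (-0.788) and Acaa2 (-0.692), and the median of the list was -0.305. Among 7 probe sets of related lipid carriers outside the chosen Fabp genes, Crabp2, a retinoic acid carrier, rose (1.21). None of 14 probe sets of PPAR and FXR receptors and partners was called, and none of 8 of ileal bile acid transport and FXR targets.

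In the other tissues at 60 mg/kg AMG B on day 14 the lists are set beside 5.66% of all probe sets called in liver and 9.88% in pancreas, and 0 of 7 Fabp members lies near those shares. In the liver 6 of 22 oxidation probe sets fell (Acads by 1.30 and Ehhadh by 1.14 the most) and 6 of 29 storage probe sets fell, of Plin2, Mgll and G0s2. Of 14 PPAR and FXR receptor and partner probe sets 1 rose in liver, with a list median of 0.578 against 0.0121 over all probe sets, and 1 fell in pancreas. Angptl4, an inhibitor of lipoprotein lipase, was lower in the liver (-2.17), as was Fabp12 (-1.04), a fatty acid binding protein gene outside the 7 chosen. In the pancreas the 3 Vldlr probe sets rose (2.85 to 4.24), the 3 Acot2 probe sets rose (1.96 to 2.82), 4 oxidation probe sets fell and 2 rose, and Pmp2, the myelin member of the wider family, fell (-3.37).

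Over the 48 adrenals, the genes whose scores followed Fabp5 most closely were Tm7sf2 (Pearson r = 0.886), a sterol reductase of cholesterol synthesis, Ropn1l (0.862) and Ebp (0.850), a sterol isomerase. For Fabp6 they were Cdkn1c (0.842), a cell cycle inhibitor, Ifitm10 (0.835) and Ak4 (0.826), a mitochondrial adenylate kinase. Fabp5 and Fabp6 followed each other at 0.798 over the arrays, in contrast to 0.114 once group means were removed. These correlations include the dose groups, share the arrays and are a description. Ifitm10 differed from control by 2.15 (limma adjusted p = 6.92e-05) in the adrenal at 60 mg/kg AMG B on day 14.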

How the data were processed

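RNA of liver, adrenal and pancreas was isolated with RNeasy midi kits and labelled with biotin from 5 ug total RNA, per the labels' protocols. The deposited values are scores, standardised for each probe set over the arrays, as the values themselves show. Scanner, summary method and scaling: not given in the sources used here. Precision is limited by how many arrays there are. The 2 tables (31042 probe sets on 108 arrays, 15866 on 36) were used as deposited, since scores have no log, and were fitted separately. Groups came from the labels, and control arrays of adrenal and pancreas were assigned to a study by animal number. limma 3.58.1 (R 4.3.3; lmFit, contrasts.fit, eBayes with trend) was fitted to all groups of a tissue and study (adrenal and pancreas: both studies), with Benjamini-Hochberg adjustment over all probe sets at 0.05 for each of 45 contrasts. Arrays of a group are separate animals, per the numbers in the labels. Correlations used 100000 permutations within groups (Python 3.11.15, SciPy 1.17.1). The adrenal fit was also run on data simulated with the same spread in every group, which does not cover groups of unequal spread.

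Animal values are given for each called comparison and for each gene's dose comparison of largest difference, with the pattern neighbours being the 3 best correlated genes and lists naming up to 4 called probe sets first. The members and lists were chosen with earlier results of these data known. Alternatives were quantile normalization, array median centring, no variance trend, a 40th percentile filter, probe sets with 1 symbol, only the groups compared, the animal as a block between tissues, a fat cell covariate and each animal left out. Animal numbers pair tissues because liver, adrenal and pancreas came from the same rat.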

Additional observations from a re-analysis of the deposited data

Results flagged for a closer look

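The 7 genes in 36 groups gave 252 sets of 4 scores. In 27 of these sets 1 animal stood apart from the other 3 beyond Dixon's 95% value (10.7%, where chance gives about 5%). The sets share animals between genes, so they are not independent. For Fabp1 these were adrenal animal 22 at 60 mg/kg AMG B, day 4 (-0.987), pancreas control 3010 (-0.998), and the livers of animals 3028 (1.01), 3031 (0.964), 3010 (1.30), 3023 (1.08) and 7 (0.772). For Fabp3 they were the adrenals of controls 3010 (2.74) and 26 (1.19), of animals 3024 (2.77) and 8 (1.05) at 3 mg/kg and 34 (4.12) at 60 mg/kg, the liver of animal 3016 (-0.0814) and the pancreas of animal 36 (1.37). For Fabp4 they were the adrenals of animals 3010 (1.46), 17 (1.34) and 26 (0.691), the liver of animal 3026 (-0.587) and the pancreas of animal 3022 (2.86). For Fabp6 they were the adrenals of animals 10 (2.09), 28 (0.0117) and 33 (7.32), the livers of animals 3019 (-0.367) and 13 (-0.459) and the pancreas of animal 28 (-0.369). For Fabp7 they were adrenal animal 22 (-0.949) and liver animal 21 (0.748). Adrenals 3010 and 26 were apart for both Fabp3 and Fabp4.

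The response to 60 mg/kg AMG B differed between tissues on day 14 for Fabp5 (liver minus adrenal -3.41) and Fabp6 (liver minus adrenal -4.66, pancreas minus adrenal -4.78). In the adrenal it differed between day 14 and day 1, by 3.94 for Fabp5 and 5.08 for Fabp6.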

How the results depend on the processing

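A fit of only the groups compared lowered the counts. It left 1 of the 3 adrenal calls and 0 of the 2 calls between 60 and 3 mg/kg. Between day 14 and day 1 it left 1 of the 2. That fit has fewer animals and takes the spread from those groups alone. The main fit shares 1 spread over all its groups, although the groups differed in spread. In the adrenal at 60 mg/kg AMG B on day 14 the SD was 1.14 for Fabp5 and 1.85 for Fabp6. In the controls it was 0.112 and 0.120. Leaving out 1 animal at a time gave 2 to 3 adrenal calls, 2 and 2 for dose, 2 and 2 for day, and 3 to 6 between tissues. The 6 came without animal 36, which added Fabp2 in liver against adrenal (-1.49, adjusted p = 0.0345) and against pancreas (-1.40, 0.0168) and Fabp5 in pancreas against adrenal. Fabp2 in liver against pancreas was also called without animal 27 (-1.45, 0.0154). Counts of 0 in liver, in pancreas and between compounds stayed 0 under every alternative run. Array median centring also lost the Fabp5 call of day 4 (adjusted p = 0.0524). Quantile normalization gave 3.37 for Fabp6 in the adrenal on day 14, turned the sign of 32 of 315 differences and added Fabp5 in pancreas against adrenal (-2.56, 0.00900), for 4 calls between tissues. Median centring turned 35 of 315 and the fat cell covariate, added after seeing the data, 21 of 147. With the animal as a replicate block between tissues (correlation 0.0229) the count stayed at 3 and no call changed. The 40th percentile filter left some members untested.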
